A study of Homo sapiens with 14 samples.

Results

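The genes described here are those whose response to E2F1 activation differed when FOXO1 and FOXO3 were knocked down. The cells were U2OS, a human osteosarcoma line, stably expressing ER-E2F1, the transcription factor E2F1 fused to an estrogen receptor domain that 4-hydroxytamoxifen (OHT) activates. Lentivirus delivered either a scrambled hairpin (sh-scr) or shFOXO33 or shFOXO707, hairpins that both target FOXO1 together with FOXO3. Serum was removed 24 h after infection, and 24 h later 20 nM OHT was added or withheld for 6 h. All groups thus shared the ER-E2F1 transgene, lentiviral infection and serum starvation, and no group received OHT without ER-E2F1, so the effect of OHT itself cannot be told apart from that of E2F1. Of the 14 Affymetrix arrays, 8 were from scrambled cells, 4 per treatment. Each hairpin had 1 array for untreated cells and 2 for OHT. Nothing in the labels says that replicates came from different cultures; p-values therefore reflect array-to-array spread that may be technical.

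For each gene, the response to OHT in scrambled cells was subtracted from the response to OHT in knockdown cells, separately for each hairpin, and the 2 differences were averaged. All values are on the scale log2(signal + 16), and a positive difference means that the gene ended higher, relative to its own start, in knockdown than in scrambled cells. Of 7720 genes tested, 5123 had a difference of the same sign with both hairpins and 2597 did not; only the former are reported on, together with their level without OHT, because a difference of responses can arise at the start, at the end or at both.

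E2F1 is a transcription factor that binds promoters of genes for DNA replication and cell cycle entry and, when strongly activated, genes for cell death. FOXO1 and FOXO3 are forkhead transcription factors that are restrained by insulin and growth factor signalling through the kinase AKT and become active when serum is withdrawn. They are known for raising cell cycle inhibitors and stress resistance genes. E2F1 and FOXO proteins are known to act on some of the same death genes.

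Median signal was 136.6 to 142.8 on arrays without OHT and 114.2 to 119.4 on arrays with OHT. The ratio of 3′ to 5′ ACTB probe sets, which reflects how intact the RNA was, reached 1.952 and 2.039 in shFOXO707 cells with OHT and at most 1.741 elsewhere. The part of that ratio in the results was not tested. Counts with shFOXO33 and scrambled arrays alone are given only for all called genes and for the mitosis and G2/M genes. Of 5 marker lists, osteoblast markers had 4 of 8 members above the filter and 1 of them called in the difference of responses, MSX2, which was lower. Epithelial markers had 4 of 10 measured and 0 called in either direction. Their summed signal without OHT was 7021 to 7543 in scrambled cells, 7546 with shFOXO33 and 5074 with shFOXO707; with OHT it was 5354 to 5640, 6118 to 6490 and 3716 to 3852. Blood, neural and endothelial or muscle markers had 1 of 12, 3 of 8 and 1 of 10 measured and 0 called, all by limma with adjusted p under 0.05. Over all genes tested 3.87% were called higher and 3.37% lower. With so few members measured, the marker counts cannot be told apart from these shares.

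The targeted genes were themselves induced by OHT. FOXO3 had signals of 424, 510, 448 and 415 in scrambled cells without OHT, of 138 with shFOXO33 and of 274 with shFOXO707. With OHT its signals were 1785, 1736, 1808 and 1844 in scrambled cells, 290 and 325 with shFOXO33, and 853 and 766 with shFOXO707. Knockdown arrays lay below all scrambled arrays of the same treatment, and shFOXO33 left less FOXO3 than shFOXO707. The FOXO3 response was 1.96 in scrambled and 1.29 in knockdown cells, a difference of -0.67 ± 0.13 (SE; limma adjusted p = 0.0045), with -0.89 for shFOXO33 and -0.45 for shFOXO707. Without the single shFOXO33 array that had no OHT the difference was -0.45 and the call was lost (adjusted p = 0.0577). Among probe sets annotated to FOXO3 as well as FOXO3B, 1 differed by -0.63 (adjusted p = 0.00247) and another by -0.37 (adjusted p = 0.291).

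FOXO1 started at 92.4, 107, 101 and 112 in scrambled cells, 49.2 with shFOXO33 and 39.1 with shFOXO707, and reached 456 to 533, 140 and 185, and 218 and 254 with OHT. Its difference of responses was -0.68 with shFOXO33 and 0.07 with shFOXO707, so it does not belong to the genes with 1 sign, and its mean of -0.30 was not called (adjusted p = 0.397). Its other probe set differed by -0.82 (-1.33 and -0.31; adjusted p = 0.136 over all probe sets). FOXO4 lay below the filter. E2F1 itself had signals of 189 to 203 in scrambled cells with OHT and 165 to 217 in knockdown cells with OHT, and differed by 0.02 (adjusted p = 0.963) with opposite signs for the hairpins.

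Relative to their own start, 299 genes ended higher in knockdown than in scrambled cells (3.87% of the genes tested) and 260 ended lower (3.37%), together 559 (7.24%), at a Benjamini-Hochberg adjusted p under 0.05 in limma. All 559 had the same sign with both hairpins, and 1778 genes had an unadjusted p under 0.05. Disagreement of the hairpins enters the error of this test and both share the scrambled arrays. The common sign of the called genes is therefore no separate support. The median difference was 0.45 among those higher and -0.51 among those lower, and 3 and 7 genes differed at least 2-fold. When a call was asked of each hairpin on its own, 96 genes were higher (1.24%) and 89 lower (1.15%); these contrasts share the scrambled arrays, and a fit without the single untreated array of 1 hairpin gives the other hairpin's value. The hairpins differed from each other in their response for 172 genes (2.23%). With the hairpins pooled into 4 groups, where constant differences between hairpins enter the error, 6 genes were called higher and 21 lower. With shFOXO33 and scrambled arrays alone 255 were higher and 289 lower, and with shFOXO707 and scrambled arrays alone 220 and 224.

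The sign and size of the responses were set beside those of all genes. Of the 299 genes that ended higher, 219 had a negative response in both kinds of cells that was smaller with knockdown, 49 had a positive response that was larger with knockdown, and 31 had responses of opposite sign. Over all genes tested, 3150 of 4255 with a difference above 0 had the first pattern, a share close to that among the 299. Of the 260 that ended lower, 207 had a positive response that was smaller with knockdown, 27 a negative response that was larger, and 26 opposite signs; over all genes, 1592 of 3465 with a difference below 0 had the first of these patterns. Over all genes tested, 2099 rose (27.2%) and 4144 fell (53.7%) with OHT in scrambled cells, and 1902 rose (24.6%) and 3690 fell (47.8%) in knockdown cells. Every array with OHT had a lower median than those without, at the same trimmed mean of 500. The part of this in the balance of rises and falls was not tested. Genes that ended higher had a median scrambled response of -0.95 and a median knockdown response of -0.48, and genes that ended lower had 1.29 and 0.71.

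The difference of responses is the knockdown difference with OHT minus that without OHT, taken from the same arrays. Genes called for it must therefore tend to differ at the start, with OHT or at both. The counts below describe where the differences lie, and setting them beside the shares over all genes is no test. Among the 299 genes higher, 106 already started lower in knockdown cells, 34 started higher and 159 were not called without OHT, where 14.2% of all genes were called higher and 13.9% lower. Among the 260 genes lower, 126 started higher, 22 started lower and 112 were not called. With OHT, where 25.5% of all genes were called higher and 19.7% lower, 219 of the 299 were higher in knockdown cells and 177 of the 260 were lower. A call at the start and not with OHT was found for 58 and 69 genes, a call with OHT and not at the start for 158 and 110, calls at both for 82 and 79, and calls at neither for 1 and 2. Over all 7720 genes these 4 classes held 592, 1911, 1576 and 3641. The median starting signal in scrambled cells was 1202 for genes that ended higher and 450 for genes that ended lower, against 520 over all genes tested.

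**Figure D1:**
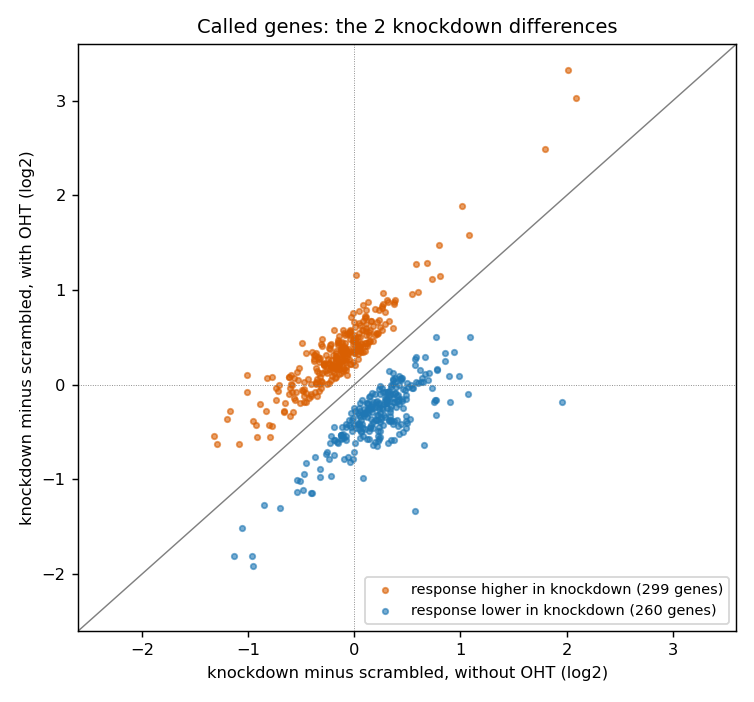
Each point is 1 of the 559 called genes; the x axis is knockdown minus scrambled without OHT and the y axis the same with OHT, both in log2. The vertical distance from the diagonal is the difference of responses: 299 genes lie above it and 260 below, and DYNLRB1 and HSD17B10 lie at the upper right, having started higher by 2.01 and 2.09 log2.

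Of the mitosis and G2/M genes, 30 of 43 ended higher relative to their start when FOXO1 and FOXO3 were knocked down. These genes encode the machinery that builds the spindle, holds chromosomes on it and lets them separate, and their transcripts peak late in the cell cycle. Besides the 30 higher, 0 ended lower and 13 were not called, against 3.87% higher over all genes. The median difference was 0.37, against 0.03 over all genes tested; 43 of 43 lay above 0 and 42 had the same sign with both hairpins, the exception being BUB3. The median response was -0.60 in scrambled and -0.29 in knockdown cells. Of the 30, 20 were called with each hairpin on its own, and 18 were not called without OHT, while 26 were called with OHT. With shFOXO33 alone against scrambled cells 24 were called and with shFOXO707 alone 23, the latter being the cells with the high ACTB ratio. Leaving out any 1 array left 23 to 33 called, but with the hairpins pooled into 4 groups 1 remained called, CENPE. Fewer cells in mitosis and less of each transcript per cell cannot be told apart in these bulk samples.

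**Figure D2:**
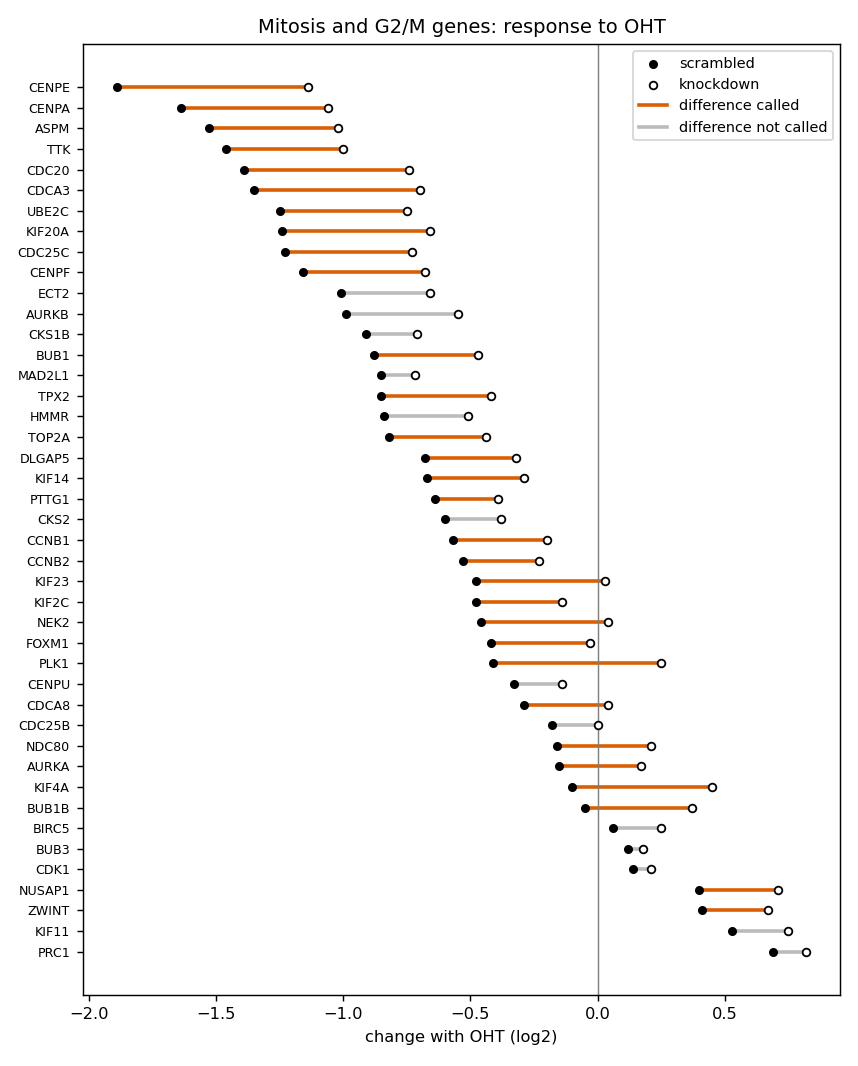
Each line joins the response of 1 of 43 mitosis and G2/M genes in scrambled cells (filled) to that in knockdown cells (open), in log2 on the x axis, with 30 called differences in orange and 13 others in grey. Every open circle lies to the right of the filled one, from 0.06 for BUB3 to 0.75 for CENPE.

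Among kinetochore genes, CENPE, the motor that carries chromosomes to the spindle middle, had signals of 1189, 1174, 1130 and 1094 in scrambled cells without OHT, 1130 with shFOXO33 and 1111 with shFOXO707. With OHT its signals were 294, 275, 346 and 278 in scrambled cells, 476 and 558 with shFOXO33, and 505 and 460 with shFOXO707. The groups overlapped at the start and did not overlap with OHT. The difference was 0.75 ± 0.12 (SE; adjusted p = 0.00141), 0.78 for shFOXO33 and 0.71 for shFOXO707. CENPF, another kinetochore protein, differed by 0.49 (adjusted p = 0.000643) from starts of 2604, 2933 and 2028 in scrambled, shFOXO33 and shFOXO707 cells; its other probe set above the filter differed by 0.31 and was not called (adjusted p = 0.284 over all probe sets). The outer kinetochore gene NDC80 (0.37, starts 2470, 2313 and 2131), the spindle checkpoint genes BUB1 (0.41, starts 1774, 1587 and 1447) and BUB1B (0.42, starts 1675, 1935 and 1742), and the checkpoint kinase gene TTK (0.46, starts 1053, 1268 and 1015) were also called. The centromeric histone gene CENPA differed by 0.58, and there the start was lower with knockdown by 0.53 (adjusted p = 0.00171) while the level with OHT was not called (0.05, adjusted p = 0.682).

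TOP2A, the topoisomerase that untangles sister chromatids, started at 5478 to 5927 in scrambled cells, 5309 with shFOXO33 and 4998 with shFOXO707. With OHT it was at 3149 to 3358 in scrambled cells, 3839 and 4061 with shFOXO33, and 3592 and 3648 with shFOXO707. The knockdown arrays thus lay below the scrambled ones without OHT and above them with OHT. Its difference was 0.37 ± 0.06 (SE; adjusted p = 0.00137), and its other probe set gave 0.46. TPX2, a spindle assembly factor that activates Aurora A, differed by 0.43 (adjusted p = 0.00109; starts 3217, 3732 and 2601), and ASPM, which acts at spindle poles, by 0.51 (adjusted p = 0.0014; starts 1852, 2099 and 1719). Of the kinesin motors, KIF20A (0.58), KIF4A (0.55), KIF23 (0.50), KIF14 (0.38) and KIF2C (0.34) were called and KIF11 (0.23, adjusted p = 0.176) was not. KIF4A started at 1596 in scrambled cells, 561 with shFOXO33 and 1404 with shFOXO707, and its difference was 0.77 with shFOXO33 and 0.33 with shFOXO707.

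CDC20, an activator of the anaphase-promoting complex, differed by 0.65 (adjusted p = 0.00231; starts 2674, 2431 and 2111), and UBE2C, a ubiquitin-conjugating enzyme of that complex, by 0.50 (adjusted p = 0.00207; starts 3457, 3508 and 3759). The cyclin B genes CCNB1 and CCNB2 differed by 0.38 and 0.29, the kinase genes PLK1, NEK2 and AURKA by 0.66, 0.50 and 0.32, and the phosphatase gene CDC25C by 0.49. The hairpins gave 0.92 and 0.40 for PLK1 and 0.53 and 0.24 for KIF14. FOXM1, a forkhead factor that activates many G2/M genes, fell by 0.42 in scrambled cells, had a knockdown response of -0.03 and differed by 0.38 (adjusted p = 0.00337; starts 1424, 1617 and 1157). CDK1 (0.07, adjusted p = 0.475), BIRC5 (0.19, adjusted p = 0.17), AURKB (0.44, adjusted p = 0.0959) and MAD2L1 (0.13, adjusted p = 0.615) were among the 13 not called. NUSAP1 and ZWINT had a positive response in scrambled cells, 0.40 and 0.41, that was larger with knockdown, 0.71 and 0.67.

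KIF18B, a kinesin that limits microtubule length and no member of the list, ended higher without a called response in scrambled cells. Its signals without OHT were 1378, 1376, 1423 and 1436 in scrambled cells, 1463 with shFOXO33 and 1326 with shFOXO707. With OHT they were 1194, 1487, 1290 and 1299 in scrambled cells, 2524 and 2267 with shFOXO33, and 2057 and 2107 with shFOXO707. All 4 knockdown arrays with OHT lay above every scrambled array, while the starts overlapped. The response was -0.09 (adjusted p = 0.144) in scrambled and 0.67 in knockdown cells, a difference of 0.77 ± 0.09 (SE; adjusted p = 0.000253).

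**Figure D3:**
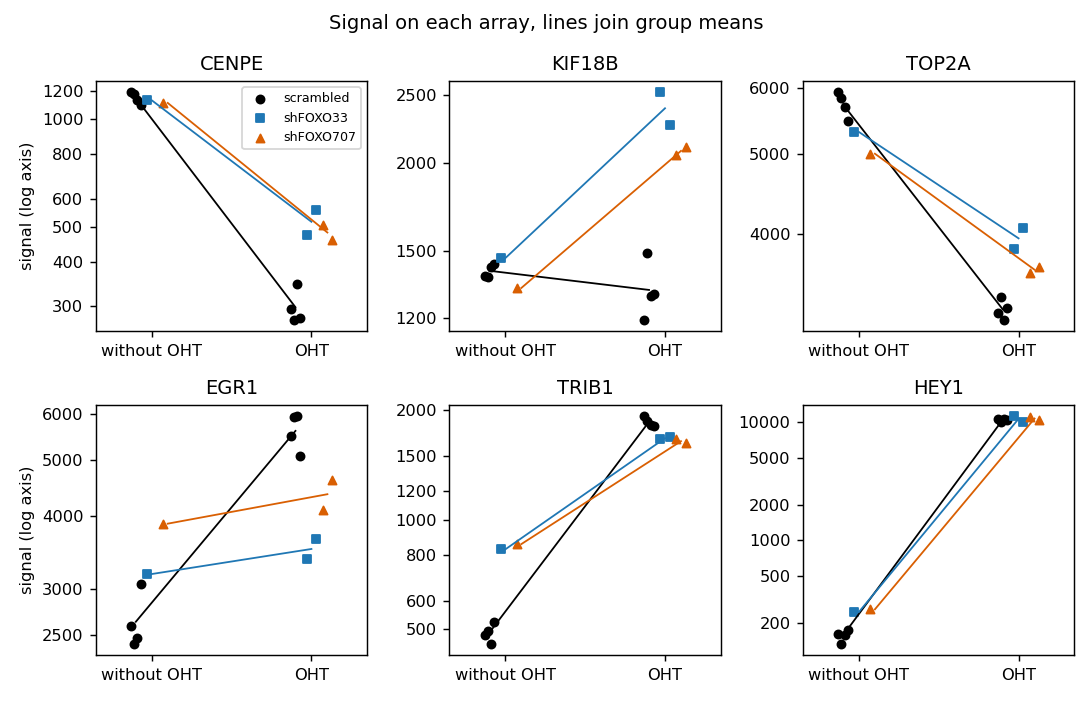
Signal on a log axis for 6 genes on each of the 14 arrays, without OHT and with OHT; symbols are single arrays of scrambled (black), shFOXO33 (blue) and shFOXO707 (orange) cells, and lines join group means. CENPE, KIF18B and TOP2A end higher in knockdown cells (differences 0.75, 0.77 and 0.37), whereas EGR1, TRIB1 and HEY1 end lower relative to their start (-0.94, -0.93 and -0.62).

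Late cell cycle promoters often carry a short element known as the CHR, and its letters were counted in RefSeq promoters (GRCh38.p14; 250 bases before to 50 after the start, both strands, first listed start of a gene). The letters TTTGAA, or TTCAAA on the other strand, were present in 17 of 25 called mitosis genes with an entry (68.0%). They were present in 21.2% of 264 genes called higher, which include these 25. The share was 9.27% of 205 called lower, 9.21% of 6440 genes tested and 15.4% of all 27305 promoters. It was not counted for mitosis genes that were not called, so the letters cannot be tied to the call. The FOXO core GTAAACA was present in 1.89% of the promoters of genes called higher, 1.46% of those called lower, 2.16% of those tested and 3.41% of all. For the E2F letters TTTNNCGC the shares were 11.7%, 8.29%, 11.2% and 6.9%. None of the motifs contains another, and a match is a description of letters, not of a bound site. Promoters of 3 called mitosis genes, chosen after their values were seen, show the element in capitals. They have the smallest p in limma among the called mitosis genes that held the letters, so their match was fixed by the choice. The match lies at position 41 after the start in CENPF (chr1:214602945-214603244, plus strand), 194 and 151 bases before it in TOP2A (chr17:40417847-40418146, minus strand), and 113 bases before it in ASPM (chr1:197146620-197146919, minus strand).
CENPF: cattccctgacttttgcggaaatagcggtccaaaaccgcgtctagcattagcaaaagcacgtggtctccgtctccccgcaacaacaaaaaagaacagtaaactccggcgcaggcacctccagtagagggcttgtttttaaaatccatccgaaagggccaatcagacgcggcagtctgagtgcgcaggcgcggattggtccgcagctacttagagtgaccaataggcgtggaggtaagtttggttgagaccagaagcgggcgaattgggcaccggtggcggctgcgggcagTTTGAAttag
TOP2A: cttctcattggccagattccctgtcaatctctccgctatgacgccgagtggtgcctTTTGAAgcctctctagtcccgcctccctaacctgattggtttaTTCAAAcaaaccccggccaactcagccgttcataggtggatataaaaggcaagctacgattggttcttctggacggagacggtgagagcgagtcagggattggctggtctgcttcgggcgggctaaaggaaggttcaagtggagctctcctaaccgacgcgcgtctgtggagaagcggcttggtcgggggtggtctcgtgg
ASPM: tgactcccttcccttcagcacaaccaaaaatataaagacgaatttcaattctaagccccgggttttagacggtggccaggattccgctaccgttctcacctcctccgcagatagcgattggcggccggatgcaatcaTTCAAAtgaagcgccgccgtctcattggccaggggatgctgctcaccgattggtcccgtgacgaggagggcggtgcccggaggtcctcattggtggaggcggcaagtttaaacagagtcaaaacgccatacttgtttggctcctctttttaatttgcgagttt

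Of the immediate early genes, 11 of 30 ended lower relative to their start in knockdown cells. These genes, many of them transcription factors of the EGR, FOS, JUN and NR4A families, respond quickly to growth factors and stress without new protein synthesis. Besides the 11 lower, 2 ended higher and 17 were not called, against 3.37% lower over all genes. The median difference was -0.34, with 25 below 0 and 5 above. The list's median response was 0.64 in scrambled and 0.41 in knockdown cells. Of the 11, 5 were called with each hairpin on its own, 6 were not called without OHT and 11 were called with OHT, 9 of them lower and JUND and KLF2 higher. Leaving out the single shFOXO707 array without OHT reduced the 11 to 7, and leaving out others gave 9 to 12; with the hairpins pooled into 4 groups 3 remained, EGR1 and TRIB1 among them.

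EGR1, a zinc finger transcription factor, had signals of 2588, 2413, 2465 and 3059 in scrambled cells without OHT, 3181 with shFOXO33 and 3886 with shFOXO707. With OHT its signals were 5495, 5938, 5959 and 5083 in scrambled cells, 3372 and 3656 with shFOXO33, and 4108 and 4629 with shFOXO707. Knockdown arrays lay above all scrambled arrays without OHT and below all of them with OHT. The response was 1.09 in scrambled cells and 0.15 (adjusted p = 0.117) in knockdown cells, and the difference was -0.94 ± 0.11 (SE; adjusted p = 0.000224), -0.95 and -0.93 for the hairpins; the other probe set gave -0.92. EGR4, a relative that started at only 28.2 to 36.5 in scrambled cells, 51.2 with shFOXO33 and 58.3 with shFOXO707, reached 364 to 448, 72.2 and 98.5, and 237 and 275. Its difference was -1.91 ± 0.28 (SE; adjusted p = 0.000868), and the hairpins differed, at -2.55 and -1.26. Its starting signals lay below 79.1, the filter level of the mean over arrays.

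TRIB1, a pseudokinase that guides ubiquitin ligases and is listed both with the immediate early genes and with FOXO targets, had among the smallest adjusted p. Its starts were 483, 495, 457 and 524 in scrambled cells, 830 with shFOXO33 and 858 with shFOXO707, and its signals with OHT were 1816 to 1930, 1665 and 1691, and 1668 and 1625. Its difference of -0.93 ± 0.08 (SE; adjusted p = 6.44e-06) lay mostly at the start, where knockdown was higher by 0.77, while with OHT knockdown was lower by 0.16 (adjusted p = 0.0123). JUND (-0.38; starts 1801, 3111 and 2661), an AP-1 subunit, and KLF2 (-0.59; starts 233, 447 and 471) started higher with knockdown by 0.67 and 0.94 and were still higher with OHT, by 0.29 and 0.35. For the orphan nuclear receptors NR4A1 (-0.82; starts 97.2, 113 and 110) and NR4A2 (-0.52; starts 66.5, 75.4 and 62.7) and the phosphatase gene DUSP1 (-0.56; starts 1334, 1420 and 1348) the start was not called, and knockdown minus scrambled with OHT was -0.64, -0.47 and -0.50. ATF3, a stress-induced factor, differed by -0.77, and ZFP36, which promotes mRNA decay, by -0.84, with -0.41 for shFOXO33 and -1.27 for shFOXO707. IER2, at -0.34, was the 1 of the 11 with a negative response in scrambled cells (-0.46), which was -0.79 with knockdown. The 2 higher were BHLHE40 (0.70; starts 2764, 1431 and 2594), a repressor of the circadian clock, and ZFP36L2 (0.42; starts 1398, 1319 and 1167).

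The EGR1 promoter (chr5:138465229-138465528, plus strand, GRCh38.p14) is shown because serum response factor is known to act through CArG boxes there. CArG boxes were searched on both strands and 2 were found, in capitals, beginning 105 and 83 bases before the start. Of 9 immediate early genes called lower with an entry, 1 had such a box (11.1%), against 1.2% of genes tested and 1.29% of all promoters. That gene was EGR1 itself, shown for its known boxes, so the share is fixed by this choice and is no separate observation. The CHR letters were found once in this window, left in lower case, and in 22.2% of the same 9 genes; the FOXO core and E2F letters were not found in it. The EGR4 promoter (chr2:73293499-73293798, minus strand) had none of the 4 motifs.
EGR1: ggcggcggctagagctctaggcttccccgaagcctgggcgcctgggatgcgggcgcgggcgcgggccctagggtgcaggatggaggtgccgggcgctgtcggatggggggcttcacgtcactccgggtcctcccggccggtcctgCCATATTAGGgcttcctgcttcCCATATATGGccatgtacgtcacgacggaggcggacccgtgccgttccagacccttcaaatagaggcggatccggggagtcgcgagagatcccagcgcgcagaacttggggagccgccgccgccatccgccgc
EGR4: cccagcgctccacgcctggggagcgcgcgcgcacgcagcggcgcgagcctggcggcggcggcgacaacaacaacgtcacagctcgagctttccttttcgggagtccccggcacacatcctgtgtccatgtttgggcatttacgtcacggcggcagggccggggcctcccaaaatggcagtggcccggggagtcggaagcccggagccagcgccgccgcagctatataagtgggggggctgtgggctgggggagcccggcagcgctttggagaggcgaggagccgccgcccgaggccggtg

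Genes of the Notch and BMP pathways formed a smaller group. In Notch signalling a ligand such as JAG1 on the surface of a cell activates a receptor on its neighbour and induces repressors of the HES and HEY families, and BMP signals induce ID and MSX genes. Of 26 measured, 6 ended lower, 1 higher and 19 were not called, with a median of -0.18 and 19 below 0. Over all genes 3.37% ended lower and 3.87% higher. Among ligands, JAG1 differed by -0.55 (adjusted p = 0.00628; starts 345, 456 and 522; -0.36 and -0.73 for the hairpins) and BMP2 by -0.45 (adjusted p = 0.0265; starts 268, 277 and 228). The receptor gene NOTCH2 went the other way: its signals were 2318 to 2548 in scrambled cells, 2921 with shFOXO33 and 3062 with shFOXO707 without OHT, and 822 to 871, 1524 and 1544, and 1774 and 1878 with OHT. Knockdown arrays lay above scrambled arrays at both times, further so with OHT, and the difference was 0.69 ± 0.07 (SE) with limma adjusted p = 0.000125. Its other probe sets above the filter gave 0.65 and 0.51, the latter not called (limma adjusted p = 0.14 over all probe sets).

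The Notch target gene HEY1 started at 160, 134, 159 and 174 in scrambled cells, 248 with shFOXO33 and 261 with shFOXO707, and with OHT it was at 10110 to 10722 in scrambled cells, 11272 and 10111 with shFOXO33, and 10985 and 10520 with shFOXO707. The groups overlapped with OHT and not without. Its responses of 5.93 and 5.31 therefore differed by -0.62 ± 0.10 (SE; adjusted p = 0.00126) through the start (0.65), with no call with OHT (0.03, adjusted p = 0.682). BAMBI, a decoy receptor that dampens BMP signals, and MSX1, a homeobox gene, also started higher (BAMBI 279, 407 and 364; MSX1 526, 679 and 733) and differed by -0.59 and -0.58. For the homeobox gene MSX2 the level with OHT was called (-0.57) and the start was not (0.14, adjusted p = 0.237). Its starts were 200 to 228, 194 and 277, its signals with OHT 864 to 952, 540 and 537, and 644 and 713, and its difference -0.70 ± 0.10 (SE; adjusted p = 0.000982). Its other probe set above the filter was at -0.34 and not called (adjusted p = 0.291 over all probe sets).

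E2F cell cycle and replication targets are the genes most directly tied to the activated factor. Of 59 measured, 4 ended higher, 1 lower and 54 were not called, against 3.87% higher and 3.37% lower over all genes; the median was 0.12 and 45 lay above 0. The cyclin E gene CCNE1 started at 1007 to 1214 in scrambled cells, 541 with shFOXO33 and 979 with shFOXO707, and reached 6521 to 7117, 5046 and 5258, and 8463 and 7822 with OHT. It ended below the scrambled arrays with shFOXO33 and above them with shFOXO707, and both starts lay below the scrambled ones. The difference of responses was 0.51 ± 0.09 (SE; adjusted p = 0.00252), 0.60 and 0.42 for the hairpins. E2F8, an E2F repressor, differed by 0.52 (starts 413, 427 and 262), and BLM, a DNA helicase, by 0.34 (starts 521, 578 and 539). RRM2, a subunit of ribonucleotide reductase, differed by 0.41 on 1 probe set (starts 9894, 8000 and 6951) and by -0.01 on the other. The 1 lower was E2F3 (-0.44; starts 463, 537 and 643). The number called higher was 8 without the untreated shFOXO33 array and 3 to 5 without any other array.

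Among 21 measured p53 targets, 6 ended higher and 1 lower, with a median of 0.16. Over all genes 3.87% ended higher and 3.37% lower. All 6 had a lower start in knockdown cells, and 3 of them were called with each hairpin on its own. A lower start was not particular to them: of the 21, 13 were called lower without OHT and 12 with OHT. CDKN1A, the cell cycle inhibitor p21, had signals of 3197, 3281, 3537 and 3666 in scrambled cells without OHT, 2185 with shFOXO33 and 2131 with shFOXO707, and of 3173 to 3471, 2870 and 2759, and 2739 and 2587 with OHT. Knockdown arrays were below all scrambled arrays at both times, less so with OHT, and the difference was 0.37 ± 0.07 (SE; adjusted p = 0.00631). TRIAP1 (0.36; starts 2550, 1834 and 1834), ZMAT3 (0.47; starts 1528, 816 and 613), the metabolic phosphatase gene TIGAR (0.32; starts 3183, 2137 and 2341), the phosphatase gene PPM1D (0.28; starts 3138, 2588 and 1619) and the p53 ubiquitin ligase gene MDM2 (0.70; starts 118, 89.1 and 58) were the others. PERP, which acts in cell death and adhesion, differed by -0.37 (starts 795, 926 and 1105; -0.21 and -0.52 for the hairpins) but lost its call in 9 of 14 fits that left out 1 array (adjusted p up to 0.314). For MDM2 the group means with OHT were 66.5, 75.1 and 69.9, all below the filter level of 79.1. Its difference with shFOXO33 was 0.49 and not called (limma adjusted p = 0.248). The number of p53 targets called higher was 4 or 5 without any 1 array, and 3 with shFOXO707 and scrambled arrays alone.

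Cyclins, cyclin-dependent kinases and their inhibitors had 3 higher and 2 lower of 19, against 3.87% and 3.37% over all genes. The inhibitor gene CDKN1C, which encodes p57, started at 521 to 614 in scrambled cells, 604 with shFOXO33 and 740 with shFOXO707, and reached 2501 to 2728, 1954 and 1779, and 1714 and 2031 with OHT. Its difference was -0.71 ± 0.11 (SE; adjusted p = 0.00109), and its other probe sets above the filter gave -0.38, -0.26 and -0.48, not called. The cyclin D2 gene CCND2 started at 5226 to 5726, 4564 and 1772 and was at 3546 to 3706, 2101 and 2057, and 425 and 425 with OHT. It fell further with knockdown, by -0.97 ± 0.16 (SE) relative to scrambled cells (limma adjusted p = 0.00154), with -0.52 for shFOXO33 and -1.41 for shFOXO707. Its other probe sets, both above the filter, gave -0.26 and -0.41 and were not called.

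Of 25 known FOXO targets measured, 1 ended lower, TRIB1, and 24 were not called, near the share of 3.37% lower over all genes, with a median of -0.04. Without OHT 3 of them were called higher and 12 lower in knockdown cells, and with OHT 1 and 14; over all genes 14.2% were higher and 13.9% lower without OHT, and 25.5% and 19.7% with OHT. In growth factor and PI3K signalling, the pathway that restrains FOXO proteins, 5 of 34 ended lower and 0 higher. They were the insulin receptor substrate gene IRS1 (-0.63; starts 1015, 908 and 1825), the kinase gene AKT1 (-0.43; starts 457, 554 and 568), the receptor genes FGFR1 (-0.54; starts 296, 344 and 347) and IGF1R (-0.55; starts 1411, 1246 and 1145), and PDPK1 (-0.51; starts 443, 462 and 660; -0.33 and -0.69 for the hairpins), whose kinase activates AKT. The IGF1R difference was -0.23 with shFOXO33 and -0.87 with shFOXO707, its other probe set above the filter gave -0.11, and without the shFOXO707 array that had no OHT its value was -0.23 (adjusted p = 0.249). AKT1 lost its call without the shFOXO33 array that had no OHT (-0.35, adjusted p = 0.137) or the first scrambled OHT array (-0.39, adjusted p = 0.0506). The 5 became 2 without the first scrambled OHT array and 3 without either hairpin's untreated array or the first shFOXO707 OHT array.

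Among apoptosis genes described as E2F1 targets, 1 ended higher and 2 lower of 21, against 3.87% and 3.37% over all genes. The pore-forming effector BAK1 differed by 0.51 (starts 265, 314 and 280; with OHT 122, 217 and 189), PPP1R13B, a p53 cofactor, by -0.53 and PERP as given. These calls were weak: The hairpins gave -0.79 and -0.27 for PPP1R13B. BAK1 lost its call in 8 and PPP1R13B in 11 of 14 fits without 1 array, with adjusted p up to 0.117 and 0.353.

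**Figure D4:**
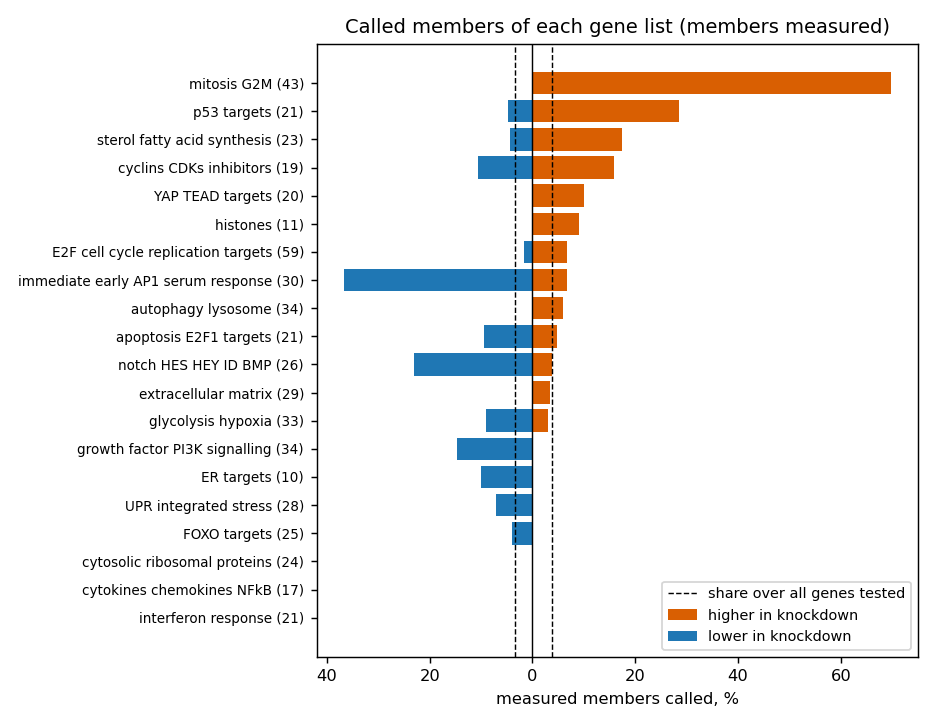
Share of the measured members of 20 gene lists (number measured in brackets) that were called higher (orange, right) or lower (blue, left) in the difference of responses; dashed lines give the share over all 7720 genes, 3.87% higher and 3.37% lower. Mitosis and G2/M genes reach furthest to the right with 30 of 43, and immediate early genes furthest to the left with 11 of 30.

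Metabolic and stress genes gave single members, to be read beside 3.87% higher and 3.37% lower over all genes. In glycolysis and hypoxia, 3 of 33 ended lower, or 5 without the untreated shFOXO33 array, and 1 higher. HK2, the hexokinase that commits glucose to glycolysis, started at 219 to 253 in scrambled cells, 263 with shFOXO33 and 365 with shFOXO707 and was at 540 to 703, 324 and 323, and 469 and 493 with OHT. The arrays with OHT did not overlap between scrambled and knockdown cells, and the difference was -0.95 ± 0.13 (SE; adjusted p = 0.000531); a second probe set below the filter gave 0.15. The angiogenic factor gene VEGFA differed by -0.58 (starts 780, 1029 and 1038; other probe sets 0.03, -0.43 and -0.54, not called), and EGLN1, an oxygen sensor, by -0.39 (starts 388, 431 and 415). DDIT4, which restrains mTORC1, started at 967 in scrambled cells, 633 with shFOXO33 and 349 with shFOXO707, and differed by 0.92 ± 0.16 (SE; adjusted p = 0.00207), the level with OHT not being called (-0.08, adjusted p = 0.512).

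Over all genes 3.87% ended higher and 3.37% lower. In sterol and fatty acid synthesis, 4 of 23 ended higher (DHCR7 0.48, SREBF1 0.45, NSDHL 0.54 and SC5D 0.28) and FASN ended lower (-0.38). Their scrambled starts were 870, 675, 859, 1917 and 1011, and those with shFOXO33 and shFOXO707 were 849 and 781, 634 and 765, 605 and 719, 1848 and 1771, and 1248 and 1042. The other DHCR7 probe set gave 0.09. FASN was at -0.30 (adjusted p = 0.138) and SREBF1 at 0.36 (adjusted p = 0.156) without the shFOXO33 array that had no OHT. SREBF1 also lost its call without the first scrambled OHT array (0.43, adjusted p = 0.0523) or the first shFOXO33 OHT array (0.40, adjusted p = 0.0535). The number higher was 1 without any of these 3 arrays, and 2 without scrambled replicate 3 of either treatment, the untreated shFOXO707 array, the second shFOXO33 or the first shFOXO707 OHT array.

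The unfolded protein and integrated stress response had 2 of 28 lower, TRIB3 (-0.48; starts 368, 661 and 205) and CHAC1 (-0.80; starts 114, 316 and 154), a glutathione-degrading enzyme. TRIB3 was at -0.45 (adjusted p = 0.0676) without the shFOXO33 array that had no OHT, and CHAC1 lost its call in 10 of 14 such fits (adjusted p up to 0.439; -1.28 and -0.31 for the hairpins). Autophagy and lysosome genes had 2 of 34 higher, ATG3 (0.26; starts 1795, 2172 and 1400) and the protease gene CTSL (0.37; starts 3662, 1127 and 3300), which lost their calls in 7 and 6 of 14 such fits (adjusted p up to 0.144 and 0.298). Of YAP and TEAD targets 2 of 20 were higher, TGFBR2 (0.76), the type II receptor for TGF-beta, and ANKRD1 (0.86). TGFBR2 started at 2047 in scrambled cells, 3238 with shFOXO33 and 1449 with shFOXO707 and was at 259, 870 and 258 with OHT, and its difference was 1.03 with shFOXO33 and 0.49 with shFOXO707. The matrix gene TIMP3 was 1 of 29 extracellular matrix genes and differed by 0.48 from starts of 901, 690 and 854. Its other probe sets gave 0.55, 0.17 and 0.10 and were not called. The linker histone gene H1-10 (0.35, starts 2816, 2391 and 2158) was 1 of 11 histones. SIAH2 (-0.53, starts 196, 246 and 263) was 1 of 10 estrogen receptor targets. SIAH2 lost its call in 8 of 14 fits without 1 array (adjusted p up to 0.11). Interferon response genes (21), cytokines and NF-kB genes (17) and cytosolic ribosomal protein genes (24) had 0 called either way. All counts in this paragraph stand beside 3.87% higher and 3.37% lower over all genes. Ribosomal genes had 23 of 24 differences above 0, with a median of 0.09; after quantile normalization the median was 0 and 1 gene was called lower, and with a replicate block 3 were called higher.

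Across all called genes, those with the largest values of the smaller of the 2 hairpin differences were named. DYNLRB1, a dynein light chain, had signals of 636, 641, 587 and 567 in scrambled cells without OHT, 2340 with shFOXO33 and 2650 with shFOXO707. With OHT its signals were 133, 154, 167 and 155 in scrambled cells, 1486 and 1465 with shFOXO33, and 1950 and 1830 with shFOXO707. It thus started higher with knockdown by 2.01 log2 and fell by 0.57 there, against 1.89 in scrambled cells. The difference of 1.32 ± 0.11 (SE; adjusted p = 6.44e-06) was 1.23 and 1.41 for the hairpins and 1.40 on the other probe set. HSD17B10, a mitochondrial dehydrogenase, likewise started higher (401, 2015 and 1534) and differed by 0.94 ± 0.12 (SE; adjusted p = 0.000495).

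Among other genes that ended higher relative to their start, CCDC86 started at 854, 459 and 378 and differed by 1.10. CD70, a ligand of the TNF family, started at 719, 217 and 354 and differed by 0.78. SNAPC1, a subunit of the snRNA-activating complex, started at 1403, 1056 and 973 and differed by 0.80. EPHB3, an ephrin receptor, started at 207, 131 and 155 and differed by 0.93. With OHT, knockdown minus scrambled was 0.34 for SNAPC1 and 0.44 for EPHB3, both called. It was 0.10 and not called for CCDC86, and CD70 was still lower with knockdown, by -0.54. ANKRD1, a muscle and YAP-responsive gene, started at 1595, 899 and 949 and was at 49.3, 58.3 and 48.8 with OHT, all arrays below the filter level of 79.1, where the difference between knockdown and scrambled was not called (0.08, adjusted p = 0.589); without the shFOXO33 array that had no OHT its value was 0.71 (adjusted p = 0.079). The chaperone gene DNAJB6 differed by 0.78 from starts of 684, 793, 677 and 548, of 594 and of 495, and by 0.72 (adjusted p = 0.0526) without that array. KRI1 started at 101 to 169, 171 and 96.6 and differed by 1.13 ± 0.33 (SE) with a limma adjusted p of 0.0474. With OHT its signals were 20.9, 53, 20.8 and 53.1 in scrambled cells, 132 and 126 with shFOXO33, and 66.2 and 76.9 with shFOXO707. Those of scrambled and shFOXO707 cells all lay below the filter level of 79.1. KRI1 was not called with either hairpin on its own. It lost its call in 11 of 14 fits without 1 array (adjusted p up to 0.142).

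**Figure D5:**
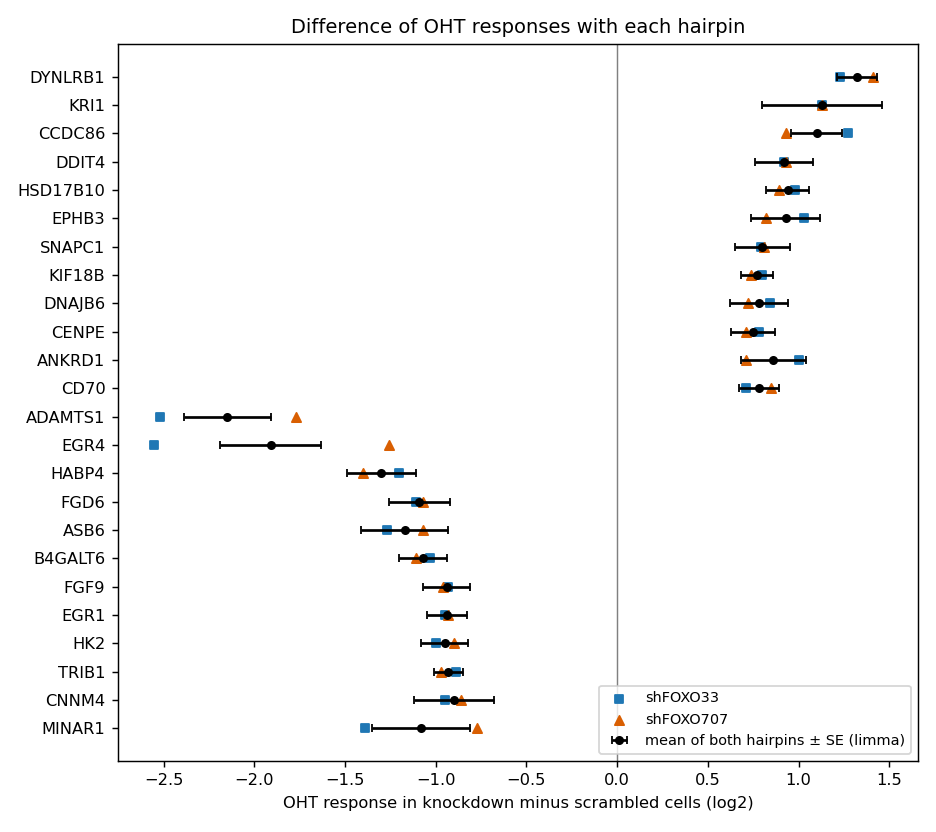
Difference of OHT responses in log2 (x axis) for the 12 genes each way chosen by the smaller of the 2 hairpin values; squares are shFOXO33, triangles shFOXO707, and black points the mean of both with its SE from limma. The genes were chosen for having both hairpins on the same side of 0. The hairpins are furthest apart for EGR4, -2.55 and -1.26.

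At the other end, ADAMTS1, a secreted metalloprotease, had signals of 129, 128, 128 and 111 in scrambled cells without OHT, 593 with shFOXO33 and 472 with shFOXO707. With OHT all arrays lay low, at 35.5 to 46.8 in scrambled cells, 34.3 and 19.4 with shFOXO33, and 41.6 and 40.5 with shFOXO707. The groups overlapped with OHT and not without. These signals with OHT all lie below 79.1, the filter level, so they cannot show a difference there, and the gene passed the filter through its untreated arrays. The fitted difference was -2.15 ± 0.24 (SE; adjusted p = 0.000157), and the start was 1.96 higher with knockdown. ASB6 was alike in form (starts 115, 245 and 266; difference -1.17), and was at -1.07 (adjusted p = 0.0536) without the shFOXO33 array that had no OHT. CNNM4 (-0.90; starts 96.3, 170 and 236) and MINAR1 (-1.08; starts 26, 51.6 and 70) also started higher, at low signals that for MINAR1 all lay below the filter level. CNNM4 was at -0.86 (adjusted p = 0.0864) and -0.95 (adjusted p = 0.0552) without the 1 array of shFOXO33 or of shFOXO707 that had no OHT. MINAR1 was at -0.77 (adjusted p = 0.188) without that of shFOXO33 and at -1.04 (adjusted p = 0.0512) without the first scrambled OHT array.

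Other genes rose from a low start in all cells and reached a lower level with knockdown, although some also started higher there. B4GALT6, a glycolipid galactosyltransferase, started at 103 to 127 in scrambled cells, 161 with shFOXO33 and 94 with shFOXO707, and reached 1209 to 1495, 858 and 880, and 480 and 526. Its difference was -1.07 ± 0.13 (SE; adjusted p = 0.000265), and -1.39 on its other probe set. The growth factor gene FGF9 started at 76.1 to 100, 121 and 140 and reached 612 to 658, 445 and 423, and 501 and 477, a difference of -0.94 ± 0.13 (SE; adjusted p = 0.00055). FGD6, an exchange factor for Cdc42, started at 36.4 to 58.5, 106 and 74.3 and differed by -1.09, and HABP4, an RNA- and hyaluronan-binding protein, started at 45.1 to 70.5, 87.4 and 115 and differed by -1.30 ± 0.19 (SE; adjusted p = 0.000982); a second HABP4 probe set below the filter gave 0.19. With OHT, scrambled and knockdown arrays did not overlap for B4GALT6, FGF9 and HABP4, whereas for FGD6 they did, at 317 to 383 in scrambled and 237 to 334 in knockdown cells. Without OHT, knockdown was called higher for FGD6, HABP4 and FGF9, by 0.77, 0.66 and 0.49, and not for B4GALT6 (0.08). With OHT the same 3 were at -0.32, -0.64 and -0.46, so the FGD6 difference lay mostly at the start. Scrambled starts of FGD6 and HABP4 all lay below the filter level of 79.1.

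The promoters of the genes with the largest differences that had an entry are shown with EGR4 above for comparison with the mitosis promoters; the first pair ended higher and the last ended lower. They are those of DYNLRB1 (chr20:34515352-34515651, plus strand), KRI1 (chr19:10565961-10566260, minus strand) and HABP4 (chr9:96449919-96450218, plus strand) in GRCh38.p14, and none of the 4 motifs was found in them.
DYNLRB1: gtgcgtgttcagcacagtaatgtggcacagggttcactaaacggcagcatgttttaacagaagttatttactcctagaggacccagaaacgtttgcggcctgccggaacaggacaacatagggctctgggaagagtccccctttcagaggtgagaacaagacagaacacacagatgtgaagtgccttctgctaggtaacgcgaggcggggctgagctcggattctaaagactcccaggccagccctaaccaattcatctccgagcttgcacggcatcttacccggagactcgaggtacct
KRI1: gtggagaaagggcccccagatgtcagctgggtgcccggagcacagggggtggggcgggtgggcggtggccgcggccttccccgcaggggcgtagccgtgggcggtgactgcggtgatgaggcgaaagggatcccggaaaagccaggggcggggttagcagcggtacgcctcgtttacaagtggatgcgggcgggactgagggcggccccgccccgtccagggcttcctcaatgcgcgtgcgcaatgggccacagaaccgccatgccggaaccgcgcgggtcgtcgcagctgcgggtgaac
HABP4: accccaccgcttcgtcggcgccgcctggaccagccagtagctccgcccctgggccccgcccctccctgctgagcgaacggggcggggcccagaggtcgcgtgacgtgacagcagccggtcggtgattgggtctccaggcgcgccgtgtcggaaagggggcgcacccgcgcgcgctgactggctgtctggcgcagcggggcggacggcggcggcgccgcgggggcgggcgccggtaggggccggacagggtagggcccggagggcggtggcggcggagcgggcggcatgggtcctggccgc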

How the data were processed

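Expression was measured on 14 Affymetrix arrays of U2OS ER-E2F1 cells. Per the submitters' processing notes the deposited signal intensities were made with MAS5; which version is not given in the sources, and no detection calls were used. The deposited intensity values had a trimmed mean of 500 on every array (2% trimmed at each end, checked on the values), so no further scaling was applied.

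Of 22277 probe sets, 62 were controls, 19064 named 1 gene, 1043 named several and 2108 none in the platform annotation. Probe sets with a mean log2 signal above the 40th percentile (signal 79.1) were kept, 11438 in all, and the brightest per gene represented 7720 genes. Values were log2(signal + 16), which understates differences of dim genes. limma 3.58.1 in R 4.3.3 fitted a start for each of scrambled, shFOXO33 and shFOXO707 cells, an OHT response in scrambled cells and a response shared by both hairpins, with a variance trend. The difference of the responses equals the mean of both hairpins' differences and was tested two-sided with Benjamini-Hochberg adjustment over 7720 genes. All adjusted p-values in the text come from limma. Of 9 residual degrees of freedom, 6 came from scrambled cells, 2 from within the hairpins and 1 from between them. A fit with 6 groups gave each hairpin's own difference. Effects of the hairpin viruses other than on FOXO1 and FOXO3 cannot be told apart from the knockdown.

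The genes described and the 25 lists, 5 of them marker lists, were chosen with earlier results of these data known. Named genes were the 12 called in each direction with the largest value of the smaller hairpin difference, up to 3 called genes per list that is no marker list by adjusted p, FOXO1, FOXO3, FOXO4 and E2F1; other list members and the CENPF, TOP2A, ASPM and EGR1 promoters were named after their values were seen. Promoter sequences came from RefSeq (GRCh38.p14), matched by Entrez gene identifier for 6440 of the genes tested. The fits were tested on simulated data. Alternatives covered the pseudocount, the filter, scaling, probe set choice, the variance prior, grouping, a replicate block and each array left out; fits with a single hairpin were added after the data were seen.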

Additional observations from a re-analysis of the deposited data

Results flagged for a closer look

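Among 120 groups of 4 scrambled arrays (60 named genes, each treatment), 4 had an array set apart from the other three; chance gives about 1 in 20 such groups. They were all untreated scrambled arrays. ADAMTS1 was at 111 in replicate 4, with the next lowest array at 128. AKT1 was at 508 in replicate 1, with the next highest at 445. CCNB1 was at 4355 in replicate 3, with the next lowest at 4511. VEGFA was at 854 in replicate 2, with the next highest at 756.

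The hairpins differed from each other in their OHT response for 4 of the named genes. By limma's test over all genes, shFOXO33 minus shFOXO707 was -1.29 for EGR4 (adjusted p = 0.027), 0.54 for TGFBR2 (adjusted p = 0.0374), 0.64 for IGF1R (adjusted p = 0.0238) and 0.89 for CCND2 (adjusted p = 4.95e-05), all on the log2 scale. Each of these rests on 1 array without OHT and 2 arrays with OHT per hairpin.

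Of 1370 probe sets above the filter that name several genes or none, which enter no comparison above, 33 were called in the difference of responses (2.41%), 14 higher and 19 lower.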

How the results depend on the processing

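Of the genes called, 299 higher and 260 lower, 6 and 21 remained with the hairpins pooled into 4 groups, and 12 of 58 named genes kept their call there, with adjusted p from 0.000665 to 0.0296. Without probe sets ending in _x_at or _s_at, 5230 genes were tested and 152 were higher and 151 lower, 47 and 50 of them with each hairpin. Without a variance trend 52 and 57 were called with each hairpin. Leaving out 1 array gave 224 to 296 higher and 179 to 299 lower, and 49 to 91 and 55 to 95 with each hairpin. The lowest counts with each hairpin came without the first shFOXO33 OHT array (66 and 55), the second (55 and 56) or the first shFOXO707 OHT array (49 and 55). Counts with each hairpin could not be given where a hairpin's untreated array was left out. With a replicate block, 223 were higher and 210 lower. Same-numbered scrambled samples correlated between treatments by -0.01 to 0.05, and the highest correlations with another number were 0.02 to 0.04. These values show no pairing by number but cannot exclude it. Of the named called genes, 39 of 58 kept their call whichever array was left out. Signs turned for E2F1, 0.02 in the text, which was -0.1 with probe sets averaged, -0.21 without _x_at and _s_at probe sets, -0.03 and -0.01 without untreated scrambled replicates 2 and 4, and -0.04 without the untreated shFOXO707 array or the first shFOXO707 OHT array; it ranged from -0.04 to 0.07 with 1 array left out. FOXO1 ranged from -0.68 to 0.07, the latter without the untreated shFOXO33 array. RRM2 and ATG3 were at -0.01 and -0.04 without _x_at and _s_at probe sets. The causes were not tested. Single untreated arrays per hairpin and the number of arrays limit the precision.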
